A study of Mus musculus with 12 samples.

Results

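The 7 genes described here carry the signal of the circadian clock to other genes. They were followed across hearts and kidneys of mice without mENT1. They are Dbp, Tef and Hlf, their opponent Nfil3, and the nuclear receptor genes Nr1d1, Nr1d2 and Rora. All 7 genes were found on the array, through 15 of the 41174 probes that were not controls. A probe was taken when its gene name, or a synonym of it, was one of the 7. The genes were chosen by their own levels over the 4 groups of this study. Their values are therefore given as a description with no test.

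The mice were mENT1 knockout mice and wild type mice, and the labels give FVB/N as the genetic background. mENT1, encoded by Slc29a1, is an equilibrative nucleoside transporter, which lets nucleosides such as adenosine pass the cell membrane. Per the submitters' design text, the tissues came from 3 mice of each genotype, and the RNA of each tissue was labelled with Cy3 and hybridised to an array of its own. This gave 4 groups of 3 arrays, named a, b and c in each group. Age, sex and the time of day at which tissue was taken are not given in the labels. The labels do not say how the gene was inactivated.

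Dbp, Tef and Hlf are the PAR bZIP transcription factors. They bind D-box elements and activate the genes that carry them, while NFIL3 (also called E4BP4) binds the same elements and represses. REV-ERBα and REV-ERBβ, encoded by Nr1d1 and Nr1d2, are repressors that bind ROR elements, where RORα, encoded by Rora, activates. Among the genes with ROR elements are Arntl, which encodes the clock activator BMAL1, and Nfil3 itself, while Dbp, Tef, Hlf, Nr1d1 and Nr1d2 are driven through E-boxes by BMAL1 and CLOCK. In heart and kidney, as in liver, the transcripts of these E-box genes and those of Arntl and Nfil3 peak at opposite times of day.

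The start regions of the 7 genes were searched for these elements, because the genes are read below by the element through which they are controlled. RefSeq sequences on build GRCm38.p6 were found for all 7, with 8 start regions in all, since Tef has 2. Both strands of each 300-base window around the start were searched for the E-box CACGTG, the D-box forms TTATGTAA and TTATGCAA, and the ROR element forms TAGGTCA and TGGGTCA. Both Tef windows held 1 E-box and the Nfil3 window held 1 ROR element, and no match overlapped another. The windows of Dbp, Hlf, Nr1d1, Nr1d2 and Rora held none of these letters. Of all 32851 start regions of this length, 7.15% held the E-box, 6.45% an ROR element and 1.66% a D-box. The stretches upstream of the start are printed with the element in capitals.
Tef, first start, chr15:81802486-81802611, plus strand: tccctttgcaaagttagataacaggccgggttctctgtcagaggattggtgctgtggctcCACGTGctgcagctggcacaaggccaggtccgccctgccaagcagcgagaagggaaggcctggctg
Tef, other start, chr15:81811216-81811341, plus strand: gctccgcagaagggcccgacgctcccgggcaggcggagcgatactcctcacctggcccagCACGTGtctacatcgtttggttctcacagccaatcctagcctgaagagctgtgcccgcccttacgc
Nfil3, chr13:52981040-52981111, minus strand: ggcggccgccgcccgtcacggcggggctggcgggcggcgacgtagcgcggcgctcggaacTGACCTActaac
The Tef E-boxes begin 127 and 138 bases before the start. The Nfil3 element begins 12 bases before the start and reads TAGGTCA on the other strand.

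Each probe is 60 bases long and its position is given on build mm7, per the file headers. Of the 15 probes, 2 cross a splice junction, since their 60 bases span 2106 bases of genome for Tef and 503 bases for Nr1d1. These probes are printed because they read spliced RNA.
Tef, A_52_P173309, chr15:81905781-81907886, plus strand: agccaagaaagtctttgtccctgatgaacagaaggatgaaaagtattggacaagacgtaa
Nr1d1, A_51_P223776, chr11:98878251-98878753, minus strand: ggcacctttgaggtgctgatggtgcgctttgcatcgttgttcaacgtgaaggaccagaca
The Nr1d1 probe is the brightest of its gene and gives the values below. The Tef values come from a brighter probe, A_52_P485573, at chr15:81910893-81910952. The probes behind the other values lie at chr7:41886169-41886228 (Dbp), chr11:90447703-90447762 (Hlf), chr13:52008023-52008082 (Nfil3), chr14:16018965-16019024 (Nr1d2) and chr9:69410920-69410979 (Rora). They were well above background on all 12 arrays. Which exon each lies in is not given in the files used here.

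Values are log2 signals relative to the 75th percentile of each array, which is 0 on every array. Levels of different genes come from different probes and are not compared. The arrays had a 75th percentile of intensity between 464 and 940.4, and 60.6% to 70.8% of the spots were well above background. The number of arrays limits the precision. The targeted gene Slc29a1 differed by -2.08 in knockout heart and -2.85 in knockout kidney (adjusted p of 0.0362 and 0.00547 by limma). All 8 heart markers were above background on all 6 heart arrays and all 8 kidney markers on all 6 kidney arrays. On the brightest probes, knockout kidney a stood apart from the other knockout kidneys, toward the wild types, in Dbp, Tef, Hlf, Nfil3 and Nr1d2. In Nr1d1 and Rora it lay close to the other knockout kidneys. Knockout heart b stood apart from the other knockout hearts, away from the wild types, in Dbp, Tef, Hlf, Nr1d1 and Nr1d2. In Nfil3 and Rora knockout heart b did not. Knockout heart a, knockout heart b and knockout kidney a carried a signal of Xist, the RNA that coats the inactive X, and the other 9 arrays did not. No wild type array carried it, so sex as read from Xist was not balanced between the genotypes. The part of sex in the levels was not tested. With Xist on 2 of 3 knockout hearts and on 1 of 3 knockout kidneys, these arrays as labelled cannot all pair the heart and kidney of the same 3 mice, and the letters were not taken as names of animals across tissues.

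Dbp, the PAR bZIP factor whose transcript swings strongly over the day in many tissues, showed the widest spread of the 7 genes. In wild type kidney its level was 6.34, 6.80 and 6.08 on arrays a, b and c. In knockout kidney it was 6.09, 2.07 and 2.15. Knockout kidney a thus lay among the wild types, and knockout kidneys b and c lay far below them. The means were 3.44 ± 2.29 in knockout and 6.40 ± 0.37 in wild type kidney (SD, n = 3 each), a difference of -2.97 ± 1.04 (SE, n = 3 and 3), or 7.82-fold lower. The Dbp spot was saturated on knockout kidney a and wild type kidney a, so the level on those arrays may be higher than given and the size of the difference is uncertain. In heart Dbp stood at 5.65, 4.60 and 5.88 in knockouts and at 6.23, 6.05 and 6.27 in wild types. Every knockout heart lay below every wild type heart, with b the lowest, and the difference was -0.81 ± 0.34 (SE, n = 3 and 3).

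Tef, a PAR bZIP factor first found in the thyrotroph cells of the pituitary, was lower on every knockout array of both tissues on its brightest probe. On its dimmer probes the kidney groups overlapped. In kidney it was at 2.82, 1.77 and 2.14 in knockouts and at 3.08, 3.27 and 3.08 in wild types. Knockout kidney a again lay closest to the wild types. The difference was -0.90 ± 0.28 in kidney and -0.60 ± 0.26 in heart (SE, n = 3 and 3). In heart the knockouts stood at 1.58, 0.72 and 1.63 and the wild types at 1.86, 1.83 and 2.04. Knockout heart b was the lowest of the 6.

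Hlf, which encodes hepatic leukemia factor, differed by nearly the same amount in both tissues. The kidney levels were 2.95, 2.03 and 2.14 in knockouts against 3.18, 3.46 and 2.96 in wild types. The heart levels were 0.22, -0.48 and 0.06 against 0.92, 0.67 and 0.67. The differences were -0.82 ± 0.28 in kidney and -0.82 ± 0.21 in heart (SE, n = 3 and 3), or 1.77-fold and 1.76-fold lower. The groups did not overlap in either tissue, though knockout kidney a, at 2.95, lay just under wild type kidney c, at 2.96.

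Nfil3, the repressor at D-boxes, ran the other way. Its level in knockout kidney was -0.16, 1.25 and 1.51, and in wild type kidney -1.82, -1.22 and -1.92. Every knockout kidney lay above every wild type kidney, and knockout kidney a lay between the wild types and the other knockouts. The difference was 2.52 ± 0.46 (SE, n = 3 and 3), or 5.74-fold higher. In heart the levels were 0.34, 0.23 and 0.55 in knockouts and -0.01, -0.05 and 0.23 in wild types, so that knockout heart b met wild type heart c. The heart difference was 0.32 ± 0.15 (SE, n = 3 and 3). Knockout heart b, lowest in Dbp, Tef and Hlf, was the lowest of the knockout hearts on this Nfil3 probe, while on A_51_P111492 knockout heart a was lowest, at -0.03 against 0.06 on b.

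**Figure D1:**
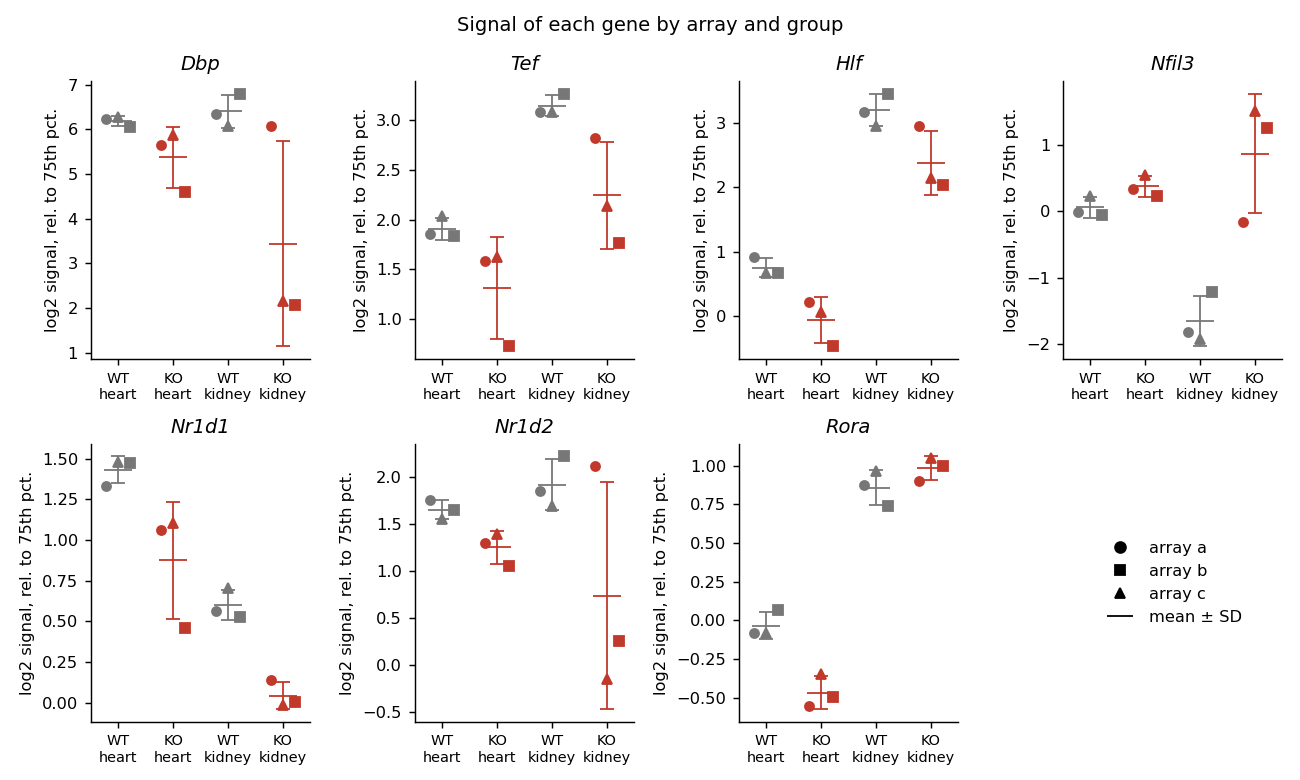
Log2 signal of each gene relative to the 75th percentile of the array (y axis, a scale of its own per gene), by group (x axis), from the brightest probe. Points are arrays a, b and c and bars are the mean ± SD of 3 arrays. Knockout kidney a sits with the wild types for Dbp, at 6.09, and Nr1d2, at 2.11, while knockout kidneys b and c lie far below.

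Nr1d1, which encodes REV-ERBα, differed by the same amount in both tissues. Knockout kidneys stood at 0.14, 0.00 and -0.01 and wild type kidneys at 0.56, 0.53 and 0.71. Here knockout kidney a lay with the other knockouts. The difference in kidney was -0.56 ± 0.15 (SE, n = 3 and 3), or 1.47-fold lower. Knockout hearts stood at 1.06, 0.46 and 1.10 and wild type hearts at 1.34, 1.48 and 1.48, with a difference of -0.56 ± 0.20 (SE, n = 3 and 3). In neither tissue did the groups overlap.

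Nr1d2, which encodes REV-ERBβ, followed Dbp rather than Nr1d1 across the kidneys. Its level was 2.11, 0.25 and -0.15 in knockout kidneys and 1.84, 2.22 and 1.69 in wild type kidneys. Knockout kidney a lay within the range of the wild types. The difference was -1.18 ± 0.57 (SE, n = 3 and 3), or 2.27-fold lower. In heart the knockouts were at 1.29, 1.05 and 1.40 and the wild types at 1.75, 1.65 and 1.55, and the groups did not overlap. That difference was -0.40 ± 0.15 (SE, n = 3 and 3).

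Rora, which encodes the activator at the same elements, was lower in knockout heart and about level in kidney. Its level was -0.56, -0.50 and -0.35 in knockout hearts and -0.08, 0.06 and -0.08 in wild type hearts. All 3 knockouts lay below, and knockout heart b did not stand apart. The difference was -0.43 ± 0.13 (SE, n = 3 and 3). In kidney the levels were 0.90, 1.0 and 1.05 in knockouts and 0.87, 0.74 and 0.96 in wild types. These groups overlapped, with a difference of 0.12 ± 0.15 (SE, n = 3 and 3).

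In heart 0 of the 7 genes passed an adjusted p of 0.05 in limma, where 0.664% of all 17480 genes tested did. In kidney 0 of 7 passed, where 0.163% of 17223 did. At an unadjusted p under 0.05 there were 4 of 7 in heart and 5 of 7 in kidney, and 2741 and 2264 of all genes. In heart 6 of 7 genes had every knockout below every wild type, which 13.0% of all genes had, and 0 had every knockout above, which 9.14% of all genes had. In kidney 3 of 7 lay below (Tef, Hlf and Nr1d1), beside 12.7% of all genes, and 1, Nfil3, lay above, beside 8.78%. The median change of the 7 was -0.56 in heart and -0.82 in kidney, against -0.07 over all genes in either tissue. These counts describe genes chosen by their levels, and nothing is read from them. The change in heart minus the change in kidney was 2.16 ± 1.24 for Dbp, -2.20 ± 0.53 for Nfil3 and -0.56 ± 0.18 for Rora (SE, 12 arrays). None of the 7 passed in the fit of that difference, in which 0.633% of 18498 genes did. At an unadjusted p under 0.05 there were 2 of the 7 and 2699 of all genes.

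Without knockout kidney a the kidney differences widened to -4.29 ± 0.23 for Dbp and 3.03 ± 0.25 for Nfil3, 8.19-fold higher (SE, n = 2 and 3). Nr1d2 went to -1.87 ± 0.22, Tef to -1.19 ± 0.18 and Hlf to -1.11 ± 0.19, while Nr1d1 stayed at -0.60 ± 0.14. The saturated Dbp spot of wild type kidney a stays in this fit, so the Dbp difference may be larger than given. These values describe genes chosen by their levels, on arrays left after 1 that stands apart in those levels was taken out, and no test is read from them. Knockout kidney a was also the only knockout kidney on a slide of its own and the only kidney with Xist signal. For this array slide and Xist signal cannot be told apart. On the slide that held knockout kidneys b and c with wild type kidneys a and b, the difference was -4.45 for Dbp, 2.90 for Nfil3 and -1.98 for Nr1d2. A fit with the slide as a block gave these same values.

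Without knockout heart b the heart differences shrank to -0.42 ± 0.16 for Dbp and -0.30 ± 0.14 for Tef (SE, n = 2 and 3). Hlf went to -0.61 ± 0.16, Nr1d1 to -0.35 ± 0.13 and Nr1d2 to -0.30 ± 0.14, with every sign kept. On the arrays without Xist signal, which leave knockout heart c alone among the knockouts, Dbp differed by -0.30, Tef by -0.28, Hlf by -0.70, Nr1d1 by -0.33, Nr1d2 by -0.25, Rora by -0.32 and Nfil3 by 0.49. Without knockout heart b, Rora, at -0.42 ± 0.15, and Nfil3, at 0.39 ± 0.16, moved less. The 3 knockout hearts lay on 1 slide and the 3 wild type hearts on another, so for the heart the effects of slide and genotype cannot be told apart. With the letter as a replicate block 0 of the 7 passed in heart, beside 0.315% of all genes, and an unadjusted p under 0.05 was reached by 5 of the 7 and by 3432 of 17480 genes.

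Of the markers of other tissues, those of liver separated the genotypes in heart, while those of thymus were high on knockout hearts a and b alone and those of lung on knockout heart a alone. The summed linear level of 8 liver markers, such as Alb, ran from 3.93 to 6.61 in knockout hearts and from 0.263 to 0.645 in wild type hearts, with 8 of 8 above background on each knockout and 4 to 7 on the wild types. The sum over 8 thymus and lymphocyte markers reached 102.8 and 216.4 on knockout hearts a and b and 1.18 on the third, against 0.709 to 1.38 in wild types, where Rag1 and Ptcra were never above background. The sum over 6 lung and airway markers was 283.1 on knockout heart a, 0.337 and 0.218 on knockout hearts b and c, and 0.0945 to 2.84 on the wild types. The sum over 6 fat markers was 232.0, 40.1 and 102.5 on knockout hearts and 177.5, 20.6 and 56.7 on wild type hearts. Summed macrophage markers overlapped between genotypes in both tissues. Their median log2 level in kidney was -1.77 to -1.37 in knockouts and -0.63 to -0.04 in wild types. In kidney the liver sum was 8.64 on knockout kidney a, 2.95 to 4.22 on the other knockouts and 2.63 to 3.34 on the wild types. The part of these tissues and of macrophages in the levels of the 7 genes was not tested. In a tissue RNA, a different share of a cell type and a different amount of RNA per cell cannot be told apart.

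The opposed pairs were set against each other on every array. For each array the mean deviation of Dbp, Tef and Hlf from the wild type mean of the tissue was taken, less the deviation of Nfil3. In knockout kidneys this balance was -1.79, -5.20 and -5.27, with a mean of -4.08 ± 1.99 (SD, n = 3), while wild type kidneys ran from -0.18 to 0.12. In knockout hearts it was -0.74, -1.50 and -0.92, with a mean of -1.06 ± 0.40 (SD, n = 3), and wild type hearts ran from -0.13 to 0.12. All 6 knockout arrays lay below all wild type arrays of their tissue, knockout kidney a included. The genes were chosen by their levels in this very contrast, so the separation is a description and nothing is read from it. The balance of knockout kidney a rested on Nfil3, at 1.49 above the wild type mean, more than on the activators, at -0.30. The activator value includes the Dbp spot, saturated on knockout kidney a and wild type kidney a, and the brightest Tef probe alone. On the dimmer Tef probes knockout kidney a lay above the wild type mean.

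The same balance was taken for Nr1d1 and Nr1d2 against Rora. In knockout hearts it was 0.16, -0.32 and 0.02, with a mean of -0.04 ± 0.25 (SD, n = 3), with Rora lower as well as the REV-ERB genes. Wild type hearts ran from -0.08 to 0.05, within the range of the knockouts. In knockout kidneys the balance was -0.17, -1.27 and -1.53, with a mean of -0.99 ± 0.72 (SD, n = 3), and wild type kidneys ran from -0.16 to 0.23. Knockout kidney a lay at the edge of the wild types, and knockout kidneys b and c lay below.

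**Figure D2:**
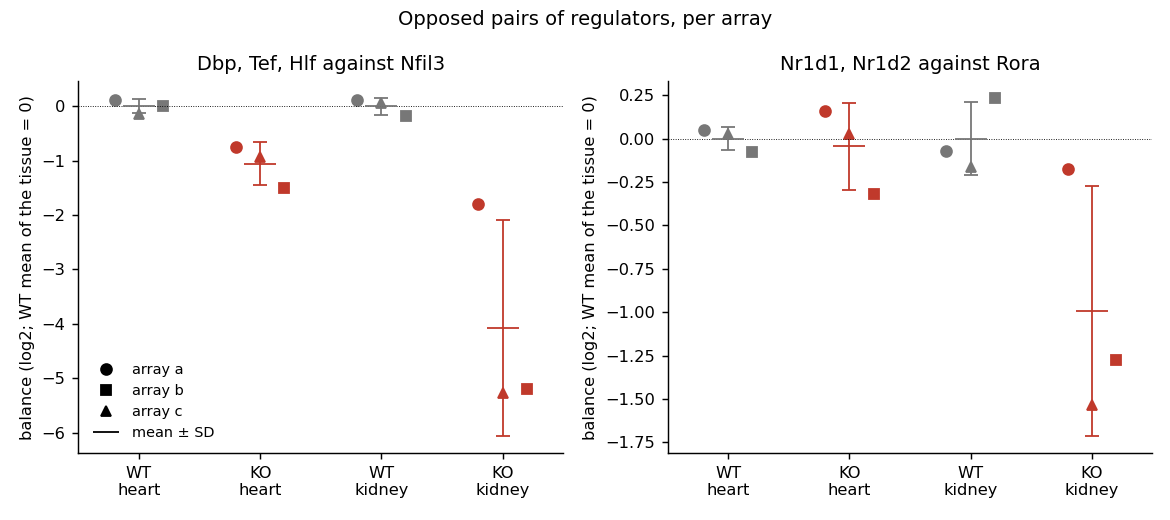
Balance of opposed regulators per array on the log2 scale (y axis, 0 is the wild type mean of the tissue) by group (x axis). Left, the mean of Dbp, Tef and Hlf less Nfil3, and right, the mean of Nr1d1 and Nr1d2 less Rora, with arrays as points and the mean ± SD of 3 arrays as bars. The left balance is below the wild types on all 6 knockout arrays, from -0.74 to -5.27, and the right balance reaches furthest below them on knockout kidneys b and c, at -1.27 and -1.53. The genes were chosen by their levels in these contrasts, so the balances are a description.

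Between the wild type tissues, Hlf stood 2.45 log2 units higher in kidney than in heart, or 5.45-fold, Tef 1.23 higher and Rora 0.89 higher. Nfil3 stood 1.71 lower in kidney, or 3.27-fold, and Nr1d1 0.83 lower. The wild type arrays of the 2 tissues did not overlap for these 5 genes. For Dbp (0.22 higher in kidney) and Nr1d2 (0.27 higher) they did overlap. Across the 4 groups, the order of Dbp and of Nr1d2 from low to high was knockout kidney, knockout heart, heart of wild types and kidney of wild types, in which the lowest pair and the highest pair of groups each overlapped. Tef and Hlf were ordered by tissue, both heart groups below both kidney groups, with the knockout below the wild type in each. For Tef wild type heart overlapped knockout kidney, and for Hlf no neighbours overlapped. Nfil3 was lowest in wild type kidney and highest in knockout kidney, with both heart groups between, and of the neighbours in that order wild type kidney and wild type heart alone did not overlap. Nr1d1 was ordered knockout kidney, wild type kidney, knockout heart and wild type heart, with the middle pair overlapping. Rora was ordered knockout heart, wild type heart, wild type kidney and knockout kidney, with the kidney groups overlapping.

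The 4 genes with more than 1 probe gave further readings. Over all 15 probes, 12 had every knockout heart below every wild type heart and 3 overlapped, and over all probes of the array with a value on all 6 hearts 9.72% lay below in this way. Both Nfil3 probes placed every knockout kidney above every wild type kidney, at differences of 2.52 and 2.75, as 6.95% of all probes with a value on all 6 kidneys did. All 4 Tef probes were lower on average in both knockout tissues, from -0.60 to -0.80 in heart and from -0.39 to -0.90 in kidney. On 3 of the 4 Tef probes, of which A_52_P658073 was above background on 7 arrays only, the kidney groups overlapped, and there knockout kidney a lay above the wild type mean. The probe across the junction was 1 of these, with -1.81 on knockout kidney a against -1.82, -2.84 and -2.19 on the wild types. Of the 3 Nr1d1 probes, A_52_P130952 followed the brightest, at -0.47 in heart and -0.49 in kidney. A_52_P130961 differed by -0.06 in heart, and its kidney difference of -0.97 rested on knockout kidney a, at -6.49 against -4.29 and -4.61 on the other knockouts. The 3 Rora probes were lower in knockout heart, from -0.43 to -0.62, and higher in knockout kidney, at 0.12, 0.23 and 0.81. On the dimmer 2 of them, A_51_P477779 and A_52_P652950, every knockout kidney lay above every wild type kidney.

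**Figure D3:**
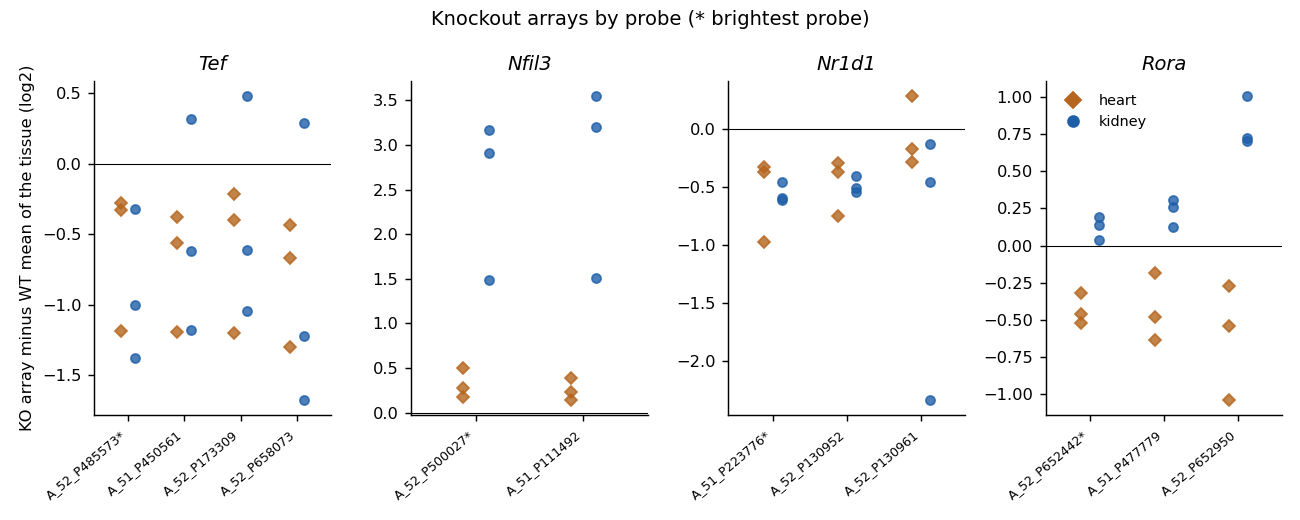
Each knockout array less the wild type mean of its tissue (y axis, log2, a scale of its own per gene) for every probe (x axis) of the 4 genes with several probes, with hearts as diamonds and kidneys as circles. Both Nfil3 probes lie above 0 on all 6 knockout arrays, the Rora probes lie below 0 in heart and above 0 in kidney, and on A_52_P130961 of Nr1d1 a single kidney array lies far below the others.

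The other genes of the clock were tested over the whole array. The core loop list held 18 genes, among them Arntl, Clock and Npas2, which encode the activators, and the Per and Cry genes, which encode their repressors. All 18 were tested in heart and 16 in kidney. None passed an adjusted p of 0.05 in limma in either tissue, while 4 in heart and 4 in kidney had an unadjusted p under 0.05. Of all genes, 2741 of 17480 in heart and 2264 of 17223 in kidney had such a p. In heart 12 were lower and 6 higher, with a median of -0.21 against -0.07 over all genes. In kidney 9 were lower and 7 higher, with a median of -0.04 against -0.07 over all genes.

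Ciart, a repressor of BMAL1 and CLOCK, gave the widest kidney difference of the list, as Dbp did among the 7 genes. It was at -3.46, -9.03 and -8.93 in knockout kidneys and at -3.02, -2.92 and -3.39 in wild types, and it was well above background on 1 of the 3 knockouts. The adjusted p was 0.299 by limma. Arntl, which turns with Nfil3 in the textbook clock, was at -1.64, 1.0 and 1.30 in knockout kidneys and at -2.01, -2.47 and -1.49 in wild types. Knockout kidney a lay among the wild types in Arntl, and its value for Nfil3 did not. Cry1, a repressor of BMAL1 and CLOCK, was above the wild types on every knockout kidney, at 1.30 ± 0.21 (SE, n = 3 and 3; adjusted p of 0.0738 by limma). On knockout kidney a Cry1 was at -4.01, beside -4.10 and -3.88 on the other knockouts. Fbxl21, an F-box protein that binds CRY proteins, differed by -1.03 ± 0.28 in kidney and -0.88 ± 0.21 in heart (adjusted p of 0.197 and 0.177 by limma). These values come from different probes, A_51_P456838 in kidney and A_52_P41239 in heart, so their sizes are not compared. Csnk1e, a kinase of the PER proteins, differed by 0.34 ± 0.16 in kidney.

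In heart, Per3 differed by -0.82 ± 0.36 and Bhlhe41, a repressor of E-box genes, by -0.72 ± 0.24 (SE, n = 3 and 3). Their adjusted p was 0.325 and 0.274 by limma. Without knockout heart b the differences shrank to -0.42 ± 0.19 for Per3 and -0.49 ± 0.18 for Bhlhe41 (SE, n = 2 and 3). Rorb, the ROR gene best known from brain and retina, was not well above background on any knockout heart and was at least 1.53-fold lower there than in wild types. For a group that is not well above background, the bound uses the higher of the dim probe and the lowest signal that was well above background on each array. Arntl was highest on knockout heart b, at 1.28, against 0.26 and -0.01 on the other knockouts and -0.31 to -0.09 in wild types. That array was also the lowest heart in Dbp and Tef.

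Without knockout kidney a, 4 core loop genes passed in kidney in limma, where 0.703% of all genes did. Ciart was not well above background on either knockout left and was at least 13.5-fold lower there (adjusted p of 0.000414 by limma). Per2 differed by -3.00 ± 0.26 (adjusted p of 0.0176). Arntl, at 3.14 ± 0.30, and Npas2, at 2.98 ± 0.42, were higher (adjusted p of 0.0255 and 0.0498; SE, n = 2 and 3). With all 3 knockout kidneys none of the 4 passed (adjusted p of 0.299 for Ciart, 0.493 for Per2, 0.288 for Arntl and 0.539 for Npas2 by limma). The array left out stands apart in Dbp, which these genes follow or oppose, so no test is read from these values.

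**Figure D4:**
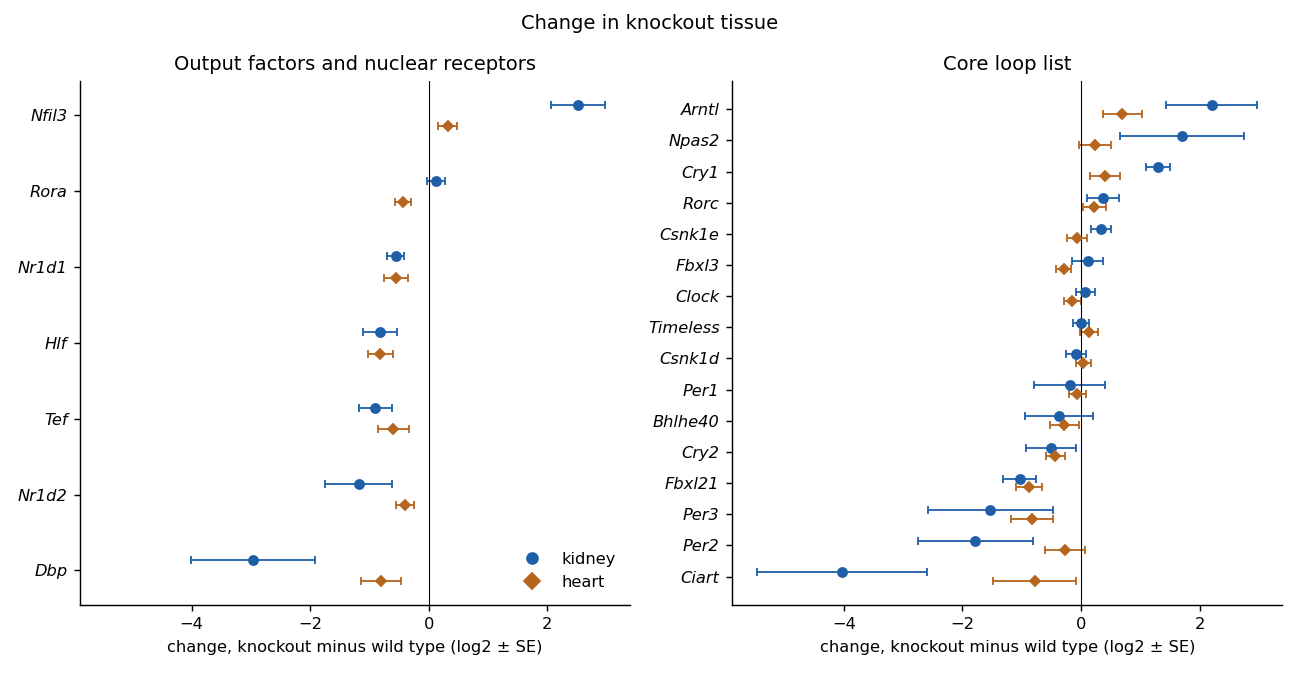
Change in knockout less wild type on the log2 scale (x axis, ± SE of the limma fit, 3 arrays against 3) for each gene (y axis), in kidney (circles) and heart (diamonds). Left, the 7 genes described here, and right, the 16 core loop genes tested in both tissues. Dbp and Ciart lie lowest in kidney, at -2.97 and -4.03, and Nfil3 and Arntl highest, at 2.52 and 2.21. Ciart was above background on 1 of the 3 knockout kidneys, and the Dbp spot was saturated on knockout kidney a and wild type kidney a.

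Genes known to depend on PAR bZIP factors or NFIL3 were taken as a list of 9, such as Por and Alas1, both of heme and cytochrome metabolism. Of 8 tested in heart and 7 in kidney, none passed in limma, and 0 had an unadjusted p under 0.05. Of all genes, 2741 of 17480 in heart and 2264 of 17223 in kidney did. The median change was 0.07 in heart and -0.24 in kidney, against -0.07 over all genes in either tissue. Por, the reductase that supplies electrons to cytochromes P450, was the only one whose groups did not overlap, at -0.47 ± 0.20 in kidney (SE, n = 3 and 3; adjusted p of 0.393 by limma).

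Genes known to depend on REV-ERB or ROR proteins were taken as a list of 17, of which 16 were tested in each tissue. In heart 2 passed, both higher, beside 116 of all 17480 genes, and in kidney 0 passed, beside 28 of 17223. An unadjusted p under 0.05 was reached by 3 in heart and 7 in kidney, beside 2741 and 2264 of all genes. Arntl, Npas2, Clock and Cry1 are in the core loop list too, and Arntl and Cry1 are counted in both kidney tallies. The genes that rose in heart were Apoa1 and Apoc3, which encode apolipoproteins made mainly in liver. Apoc3 rose by 3.99 ± 0.44 (SE, n = 3 and 3; adjusted p of 0.0228 by limma), and it is itself among the liver markers whose sum was higher in knockout hearts. It was above background on 1 of the 3 wild type hearts, and with normexp background correction it differed by 1.35 (adjusted p of 0.0589 by limma). Apoa1 rose by 2.69 ± 0.29 (adjusted p of 0.0212 by limma). It was not well above background on any wild type heart and was at least 5.83-fold higher in knockouts. That bound holds for the main processing, and with normexp background correction Apoa1 differed by 0.55 in heart (adjusted p of 0.330 by limma). Both calls ended without knockout heart b (adjusted p of 0.0761 for Apoa1 and 0.0752 for Apoc3 by limma), wild type heart b (0.110 and 0.107) or wild type heart c (0.119 and 0.109), and with the letter as a replicate block (0.0868 and 0.0540). The call of Apoc3 ended without knockout heart a too (0.111). Over all alternatives the adjusted p ran from 0.00837 to 0.330 for Apoa1 and from 0.00641 to 0.180 for Apoc3. The part of liver RNA in these values was not tested. In kidney, Apoa1 differed by 2.83 ± 0.38 and was at least 2.81-fold higher in the main processing (adjusted p of 0.0579 by limma). With normexp it differed by 1.20 in kidney (adjusted p of 0.701 by limma). Ccl2, a chemokine that attracts monocytes, differed there by -1.15 ± 0.43 (adjusted p of 0.332 by limma).

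Rhythmic output genes of other kinds were a list of 22. None of the 21 tested in either tissue passed in limma. An unadjusted p under 0.05 was reached by 6 in heart and 6 in kidney, beside 2741 of 17480 and 2264 of 17223 genes. Cirbp, a cold-inducible RNA binding protein, was at 2.93, 2.98 and 3.32 in knockout hearts and at 3.99, 4.04 and 4.30 in wild types, with an adjusted p of 0.0693 by limma. In kidney Cirbp differed by -0.87 ± 0.36 (SE, n = 3 and 3), and knockout kidney a was the lowest, at 2.03. Nampt, which makes a precursor of NAD, differed by -0.62 ± 0.13 in heart. Kcnip2, a subunit of cardiac potassium channels, differed by -1.02 ± 0.27 in heart, and Leo1, of the PAF complex, by 1.75 ± 0.40. In kidney the water channel genes Aqp2 and Aqp4 differed by 1.29 ± 0.25 and 1.93 ± 0.49, and Slc9a3, a sodium and proton exchanger, by -1.08 ± 0.29. For Aqp4, knockout kidney a was the highest, at 1.76, so that Aqp4 and Cirbp did not order the kidneys as Dbp did.

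Likeness to Dbp was measured as the Pearson correlation over the 12 arrays after the mean of each tissue was taken off, among 13837 other genes with a symbol that were tested in both tissues. These are descriptions, and knockout kidneys b and c set the range of Dbp. The 5 genes most like Dbp were Ciart (0.99), Nr1d2 (0.97), Per2 (0.95), Herpud1 (0.95) and Vasn (0.94). The 5 most opposed were Arntl (-0.99), Rps6ka1 (-0.97), Zfp169 (-0.96), Npas2 (-0.95) and Brd3 (-0.94). The core loop list thus held 4 of these 10, and 1 was a gene described here. For Nr1d1 the nearest were Lrrn1 (0.93), the targeted gene Slc29a1 (0.93), Pgbd5 (0.92), Pcdhga7 (0.91) and Robo4 (0.91), and none was a listed clock gene. For Nfil3 they were Heatr6 (0.94), Zbtb3 (0.93), Ucp2 (0.92), Sprr1a (0.92) and Rtl6 (0.91), again with no listed clock gene.

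Among the 7 genes, Dbp correlated with Tef at 0.99 over the 6 hearts and 0.97 over the 6 kidneys, and with Nr1d2 at 0.91 and 0.98. With Nfil3 it correlated at -0.24 in heart and -0.91 in kidney, and with Rora at 0.72 in heart and -0.80 in kidney. Each correlation has 6 arrays, 3 of either genotype.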

How the data were processed

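The members and the gene lists were chosen with earlier results of these data known. The authors deposited scanner files whose processed signal is a background-subtracted intensity for each spot, unscaled between arrays. Feature Extraction was version 9.5.3.1 per the file headers and 9.1 per the submitters' processing notes. They also deposited a table of log2 values. Its columns follow the array of that letter and tissue from the opposite genotype (lowest r 0.99988), so the scanner files were used, in which Slc29a1 is lower on knockout arrays. With the table's own names every change would turn its sign. In the alternative that used the deposited table, its columns were first renamed to the arrays they follow. That alternative therefore does not test the labels.

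The log2 intensity less each array's 75th percentile was averaged per probe. The brightest probe per gene was tested where all 3 arrays of a group were well above background, with limma 3.58.1 in R 4.3.3 and Benjamini-Hochberg adjustment, tested on simulated data. Same-letter hearts deviated together (r of 0.39, 0.19 and 0.26), so the letter was a replicate block in an alternative, which gave 55 heart genes in place of 116. Exact permutation of 3 against 3 cannot go below p = 0.1. Named genes were every member, and per list and comparison up to 6 called genes or, where none was called, the 4 largest changes without overlap, and for likeness the 5 nearest genes. A gene that this rule takes is not reported here. Arntl, Per2, Npas2 and values by array were added after the values were seen. Alternatives were other scalings, background correction, filters, probes, blocks and arrays left out.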

Additional observations from a re-analysis of the deposited data

Results flagged for a closer look

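The mean change of Rora differed in sign between the tissues. In kidney it was 0.12 ± 0.15 (SE, n = 3 and 3), and the kidney groups overlapped on the brightest probe. Every knockout heart lay below the wild type mean of heart and every knockout kidney above that of kidney, and the change in heart minus that in kidney was -0.56 on the log2 scale. The gene was chosen by its levels, so no independent test of this difference was made, and it did not pass an adjusted p of 0.05 in the limma fit of the difference over all genes. In kidney the value turned to -0.04 with normexp background correction.

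Apoc3, from the list of REV-ERB or ROR dependent genes, rose more in heart than in kidney. The difference between the changes was 3.39 ± 0.53 (SE, 12 arrays) with an adjusted p of 0.0230 by limma. Its call ended without knockout heart a (0.0570), wild type heart b (0.0646) or c (0.0649), knockout kidney b (0.0678) or wild type kidney b (0.0737), with the replicate block (0.0578) and with normexp (0.757), and the range over the alternatives was 0.000728 to 0.757. Apoc3 is also among the liver markers, whose summed level was higher on all 3 knockout hearts, and the part of liver RNA was not tested.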

How the results depend on the processing

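All 224 recomputed member changes kept their direction except Rora in kidney with normexp (-0.04), and 12 moved by more than 1 SD. Many of them were not free to differ. The letter block leaves each change as it was, as does a filter that keeps the same probe. The mean of the probes does so for genes with a single probe. In kidney, leaving out arrays with Xist signal is leaving out knockout kidney a. The slide block there gives the values of the slide with both genotypes. Without replicates in turn, the balance of activators against Nfil3 ran from -1.21 to -0.83 in heart and -5.23 to -3.49 in kidney, and that of REV-ERB genes against Rora from -0.15 to 0.09 and -1.40 to -0.72. Scaling by the median put the median of all heart genes at -0.23 in place of -0.07, with Nfil3 at 0.15 and Rora at -0.60 in heart. In kidney it passed Nfil3, beside 104 of 17223 genes. Genes called in heart (116) were 27 with a filter on every array, 55 with the replicate block and with no filter, 17 with normexp, 46 on arrays without Xist signal, 70 with quantile scaling, and 23 to 1979 leaving out 1 array (23 without wild type heart b, 1979 without knockout heart c). In kidney (28) they were 104 with the median, 11 with the deposited table, 2 with the replicate block (letters did not pair kidneys, r of 0.10, -0.01 and -0.15), 50 with the mean of the probes, 4 with no filter, 0 with normexp (602 at an unadjusted p under 0.05 in limma), 121 without Xist signal, 289 with the slide, and 1 to 121 leaving out 1 array (1 without wild type kidney a or c, 121 without knockout kidney a). For the difference (117) they were 46, 75 and 0 with the filter on every array, the replicate block and normexp (1074 at an unadjusted p under 0.05), and 39 to 1266 leaving out 1 array (39 without wild type heart c, 1266 without knockout heart c). Listed clock genes called were 2 in heart, with 1 under the replicate block (Elovl3, with Apoa1 and Apoc3 lost) and 0 under either filter change, normexp or no Xist signal, and 0 to 12 leaving out 1 array (12 without knockout heart c). In kidney they were 0, with 1 under the median, 5 without Xist signal and 8 with the slide, and 0 to 5 leaving out 1 array. For the difference they were 1, with 0 under the filter on every array, the replicate block and normexp, and 0 to 5 leaving out 1 array. Of the 7 members, Nfil3 passed in the difference without knockout heart c, beside 1266 of all 18498 genes. Without knockout kidney a, Dbp, Nfil3 and Nr1d2 passed in kidney, beside 121 of all 17223 genes. The same members passed then in the difference, beside 132 of 18498. With the slide as a block Dbp, Hlf, Nfil3 and Nr1d2 passed in kidney, beside 289 of 17223. These are counts on genes chosen by their levels, and nothing is read from them. The letter block changed no call of a member. The cause of these shifts was not tested. Signal over background did not limit the members' brightest probes, which were above background on all 12 arrays.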
